A study of Danio rerio with 10 samples.

Results

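The transcripts of 5 germ line genes, ddx4, dazl, nanos3, tdrd5 and asz1, were followed in whole adult male zebrafish exposed to estrogen with or without an anti-estrogen. The genes were chosen with earlier results of these data known. Their probes were found by symbol in the annotation of the array, which names 5356 genes by a single symbol. Of the 16416 probes 6 belonged to them, a pair to ddx4 and 1 to each other gene. All 6 probes had a value on each of the 10 arrays and were among the 16208 probes tested. The E2+ICI group (3 fish) received 17β-estradiol (E2) at 10 nM together with ICI 182,780 at 1 µM, an anti-estrogen that binds the estrogen receptor. The E2 group (3 fish) received E2 at 10 nM alone, although the sample titles of the E2-exposed fish give 10 mM. The control group (4 fish) was kept in 0.01% (v/v) ethanol, the solvent that all 3 groups shared. Exposure lasted 96 hours, and RNA was taken from each whole fish, so that gonad, liver and all other tissues were mixed. No group received ICI alone, and no strain or genotype was given in the labels.

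Germ cells carry RNA-rich granules, known as germ plasm or nuage, in which RNA-binding proteins control translation and in which small piRNAs are made that silence transposons. The 5 genes encode proteins of this system and were grouped here as germ line genes of both sexes. Their levels in testis and in ovary were not measured separately. ddx4, also called vasa, encodes a DEAD-box RNA helicase and is the classical germ cell marker of zebrafish. dazl encodes an RNA-binding protein that promotes translation of its target transcripts, and nanos3 encodes a zinc finger protein that represses translation and is required to maintain germ cells in zebrafish. tdrd5 encodes a Tudor domain protein and asz1 an ankyrin repeat protein of the germ granule, both known from the mouse for their part in the piRNA pathway of male germ cells.

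Each fish had 1 array, on which its Cy3-labelled RNA competed with 1 reference in Cy5, prepared from pooled livers of both sexes in equal amount. Values are log2 ratios, fish over reference, so that 0 stands for the same level in both after normalization, and 1 unit for a 2-fold difference. The SD over all probes of an array was 0.373 to 0.561 in E2+ICI, 0.461 to 0.514 in E2 and 0.796 to 1.07 in control fish, and 196 to 912 values were missing per array. The arrays hold no read depth, and their number (3, 3 and 4) limits the precision. Differences were tested with limma over all probes, two-sided, with Benjamini-Hochberg adjustment, and passing means an adjusted p under 0.05. The labels do not state that the fish of a group came from separate tanks, so that the p-values measure the spread between these fish. The response to E2 was present in the marker vtg3, a vitellogenin yolk protein gene of the liver, which averaged -0.15 ± 0.21 in E2+ICI, 1.22 ± 0.69 in E2 and -6.44 ± 0.57 in control fish (SD, n = 3, 3 and 4).

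All 5 germ line genes were higher in E2 than in control fish, by 3.32-fold to 13.1-fold, and 6 of 6 probes passed. Among all probes tested 35.6% passed in either direction and 19.2% (3104 probes) passed as higher, against 16.5% as lower. The median difference of the 6 probes was 2.54 on the log2 scale, against a median of -0.07 over all probes, of which the 5th to 95th percentile ran from -1.0 to 1.57. The lowest E2 array lay above the highest control array for each of the 6 probes, which was so for 22.0% of all probes. Since the genes were chosen with earlier results known, these shares are a description and no independent support. In whole fish, a difference in the number of cells of a type and a difference in RNA per cell cannot be told apart. The 3 E2 fish were alike, with an SD of 0.07 to 0.31 per probe, and their means lay between 0.03 and 0.29, near the level of the reference. In control fish the same transcripts lay below the reference by 2.75-fold to 12.9-fold. Why they read higher in a reference described as liver RNA than in whole male fish was not tested. The spread over all probes was widest on the control arrays, and scalings that even it out lowered the differences, although 6 of 6 probes passed under each. With quantile normalization, which gives all arrays the same distribution of values, the E2 fish were higher than control fish by 2.64-fold to 5.41-fold (dazl 5.41-fold, asz1 3.65-fold), and with arrays scaled to equal spread by 2.87-fold to 7.14-fold. Lowess normalization is an intensity-dependent correction within each array. With the ratios before it, and array medians set to 0, the E2 fish were higher by 4.04-fold to 12.5-fold (asz1 10.4-fold).

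**Figure D1:**
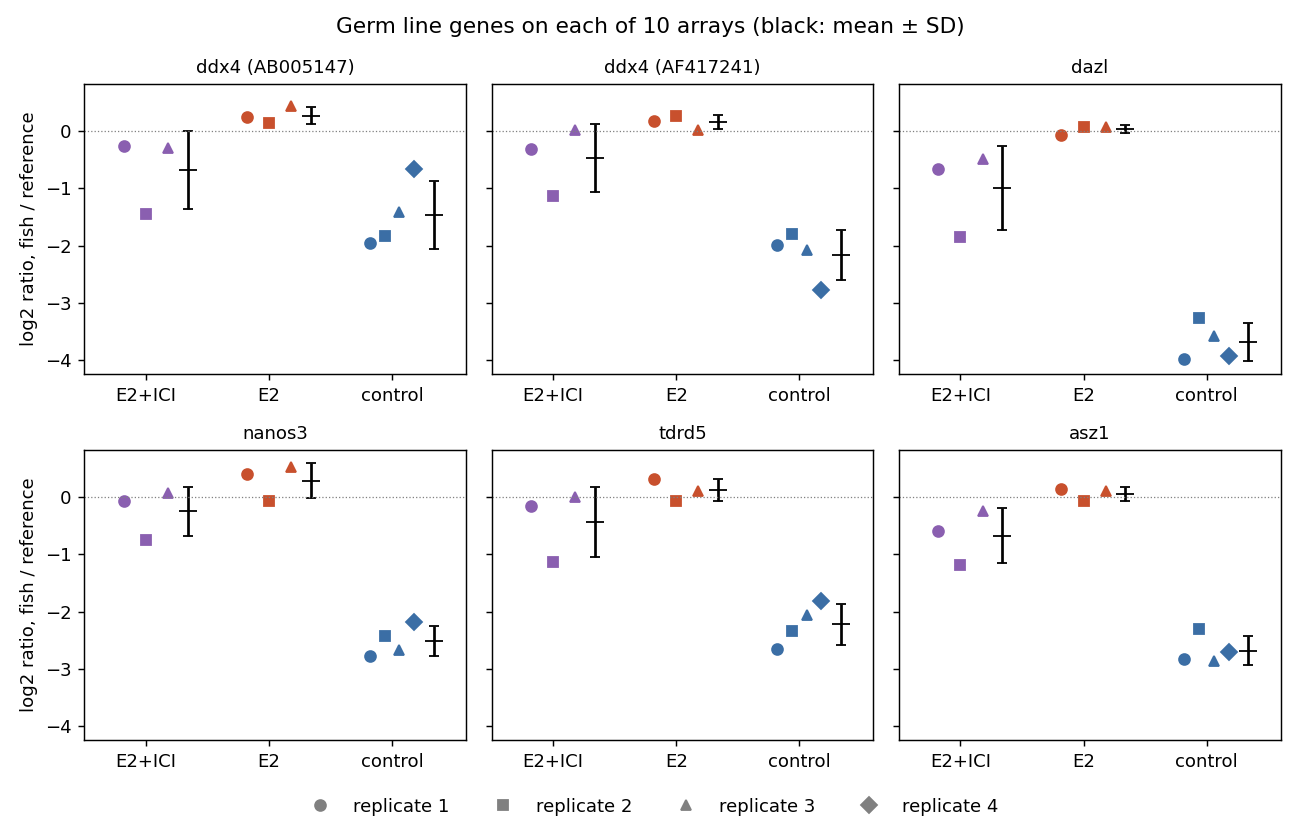
Log2 ratio of fish to reference (vertical axis) of the 6 probes of the germ line genes on each of the 10 arrays, by group, with 1 point per fish and black bars for the mean ± SD. The E2 points lie near 0 in each panel, the control points lie lowest, and E2+ICI replicate 2 is the lowest of its group in all 6 panels.

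dazl showed the widest difference. Its log2 ratios were -0.66, -1.84 and -0.49 in E2+ICI fish, -0.06, 0.07 and 0.07 in E2 fish, and -3.97, -3.26, -3.58 and -3.93 in control fish. The 3 groups did not overlap, with E2 highest, E2+ICI between and control lowest. The means were -0.99 ± 0.73, 0.03 ± 0.07 and -3.68 ± 0.33 in the same order of groups (SD, n = 3, 3 and 4). dazl was higher by log2 3.71 in E2 than in control fish (SE 0.30, 95% confidence interval 3.06 to 4.36, adjusted p = 5.04e-06), and 1.01% of all probes had a higher difference.

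nanos3, the translational repressor, had log2 ratios of -0.07, -0.74 and 0.07 in E2+ICI fish, 0.41, -0.06 and 0.52 in E2 fish, and -2.78, -2.42, -2.66 and -2.18 in control fish. Both exposed groups lay above every control fish and overlapped each other. It was higher by log2 2.80 in E2 than in control fish (SE 0.23, 95% confidence interval 2.29 to 3.31, 6.97-fold, adjusted p = 6.64e-06).

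asz1, the ankyrin repeat gene of the germ granule, had log2 ratios of -0.59, -1.19 and -0.24 in E2+ICI fish, 0.15, -0.07 and 0.11 in E2 fish, and -2.83, -2.31, -2.86 and -2.70 in control fish. Its 3 groups were separate in the same order as those of dazl. The difference between E2 and control fish was 2.74 (SE 0.22, 95% confidence interval 2.25 to 3.22, 6.66-fold, adjusted p = 5.65e-06).

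tdrd5, the Tudor domain gene, had log2 ratios of -0.16, -1.13 and -0.00 in E2+ICI fish, 0.31, -0.07 and 0.11 in E2 fish, and -2.65, -2.34, -2.06 and -1.82 in control fish. The exposed groups overlapped and stood apart from control. It was higher by log2 2.33 in E2 than in control fish (SE 0.28, 95% confidence interval 1.73 to 2.94, 5.05-fold, adjusted p = 8.35e-05). A further probe, BM184527, has no zebrafish symbol in the annotation, but the study pairs it with human TDRD5, and it was looked at after the values of tdrd5 were known. It averaged -0.42 ± 0.37 in E2+ICI, 0.19 ± 0.16 in E2 and -2.77 ± 0.08 in control fish (SD, n = 3, 3 and 4), and was higher by log2 2.96 in E2 than in control fish (SE 0.18, adjusted p = 9.52e-07).

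The helicase gene ddx4 was measured by a pair of probes named here by their GenBank entries. Probe AF417241 had log2 ratios of -0.31, -1.13 and 0.02 in E2+ICI fish, 0.18, 0.27 and 0.02 in E2 fish, and -1.98, -1.79, -2.08 and -2.77 in control fish. Probe AB005147 had -0.25, -1.45 and -0.30 in E2+ICI fish, 0.24, 0.14 and 0.44 in E2 fish, and -1.96, -1.83, -1.41 and -0.66 in control fish. The probes gave nearly the same value on E2 replicates 1 and 2, E2+ICI replicate 1 and control replicates 1 and 2, where they lay at most 0.13 apart. On control replicate 4 AB005147 lay 2.12 above AF417241, and on control replicate 3 it lay 0.68 above it. Before Lowess normalization AB005147 stood at -0.95 and AF417241 at -4.41 on control replicate 4, so that the gap was present before that step. Across the 10 arrays the probes correlated with r = 0.769, against 0.846 to 0.994 for the other pairs of the 6 probes. After removal of the group means r was 0.01 for the ddx4 probes, against 0.21 to 0.92 for the other pairs. Both describe values that share arrays and groups. ddx4 was higher in E2 than in control fish by log2 2.31 on AF417241 (SE 0.28, 95% confidence interval 1.69 to 2.94, adjusted p = 0.000105) and by log2 1.73 on AB005147 (SE 0.34, 95% confidence interval 0.98 to 2.49, adjusted p = 0.00238). Which probe follows the transcript more closely was not tested.

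**Figure D2:**
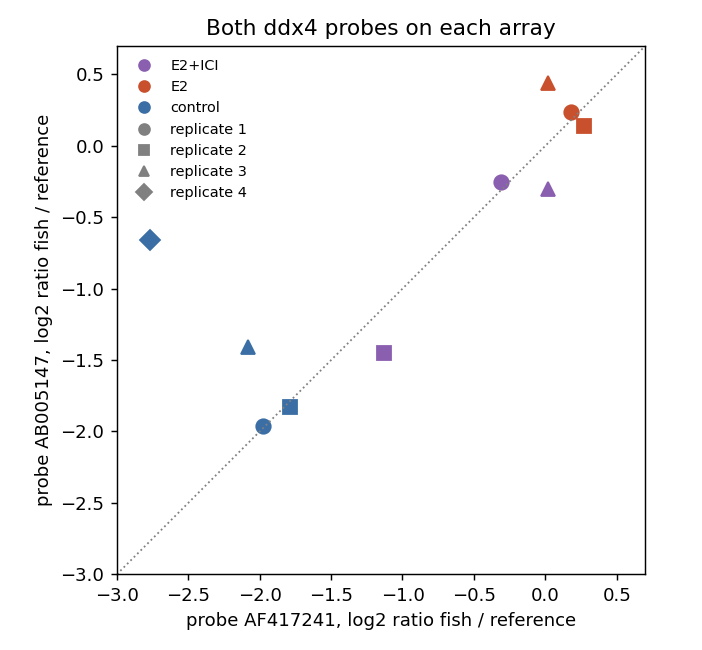
Log2 ratio of fish to reference of ddx4 probe AF417241 (horizontal axis) and of probe AB005147 (vertical axis), with 1 point per array, coloured by group, and a line of equal values. Control replicate 4 lies farthest from the line, 2.12 above it, and the E2 arrays lie together at the upper right.

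The E2+ICI group addresses whether an anti-estrogen given with E2 brings these transcripts back towards the control level. In E2+ICI fish 5 of 6 probes, all but AB005147 of ddx4, were higher than in control fish and passed, against 12.0% of all probes in either direction, 8.92% as higher and 3.04% as lower. The median difference of the 6 probes was 1.90 on the log2 scale, against 0.01 over all probes. dazl was higher by log2 2.69 in E2+ICI than in control fish (SE 0.30, 6.45-fold, adjusted p = 0.000172), and nanos3 by log2 2.26 (SE 0.23, 4.79-fold, adjusted p = 9.99e-05). asz1 was higher by log2 2.00 (SE 0.22, adjusted p = 0.000177), tdrd5 by log2 1.79 (SE 0.28, adjusted p = 0.00161) and ddx4 on AF417241 by log2 1.68 (SE 0.28, adjusted p = 0.00281). For these 5 probes every E2+ICI array lay above every control array, which was so for 15.5% of all probes. AB005147 differed by 0.79 (SE 0.34, 95% confidence interval 0.04 to 1.55, adjusted p = 0.167) with overlapping groups. It passed without control replicate 4, the array on which the ddx4 probes disagreed, with log2 1.06 (adjusted p = 0.0259), and without E2+ICI replicate 2, with log2 1.18 (adjusted p = 0.0376). Under 18 of the 22 alternatives AB005147 did not pass, and with quantile normalization it differed by 0.11 (adjusted p = 0.881). Of the 6 probes only nanos3 still passed with quantile normalization. The differences of dazl, asz1, tdrd5 and AF417241 were then 0.68 to 1.01 (adjusted p = 0.051 to 0.309). With arrays scaled to equal spread 5 of 6 probes passed, all but AB005147. Their differences ran from 1.07 (AF417241, adjusted p = 0.0148) to 1.67 (nanos3, adjusted p = 0.00423), with dazl at 1.59 (adjusted p = 0.00348).

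Set directly against E2, the mean of E2+ICI fish was lower for each of the 6 probes, with differences of -1.02 to -0.54 on the log2 scale, but 0 of 6 probes passed in limma. At an unadjusted p under 0.05 there were 3 probes, as for 3919 of all 16208 probes, and 2.54% of all probes passed as lower, 2.88% as higher and 5.42% in either direction. The estimate for dazl was -1.02 (SE 0.32, 95% confidence interval -1.72 to -0.33, adjusted p = 0.0812), and that for ddx4 on AB005147 was -0.94 (SE 0.37, 95% confidence interval -1.74 to -0.13, adjusted p = 0.145). asz1 differed by -0.73 (SE 0.24, 95% confidence interval -1.25 to -0.21, adjusted p = 0.0916). For these 3 probes every E2+ICI array lay below every E2 array, as for 19.9% of all probes. The groups overlapped for AF417241, with -0.63 (95% confidence interval -1.30 to 0.04, adjusted p = 0.234), for tdrd5, with -0.55 (-1.20 to 0.10, adjusted p = 0.287), and for nanos3, with -0.54 (-1.09 to 0.00, adjusted p = 0.21). The intervals still hold a difference of over 2-fold for each of the 6 probes, so that equal levels in E2+ICI and E2 fish are not shown. This count depended on the processing. With quantile normalization and with equal spread 4 of 6 probes passed, all but nanos3 and tdrd5, with dazl at -1.76 (adjusted p = 0.00807) and -1.24 (adjusted p = 0.00855). With array weights and in a fit of the E2+ICI and E2 arrays alone dazl, AB005147 and asz1 passed, and without control replicate 4 dazl (adjusted p = 0.0414) and AB005147 (adjusted p = 0.0433). Without E2+ICI replicate 2 the differences shrank to between -0.60 (dazl) and -0.20 (tdrd5), with AF417241 at -0.30, and 0 of 6 passed.

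**Figure D3:**
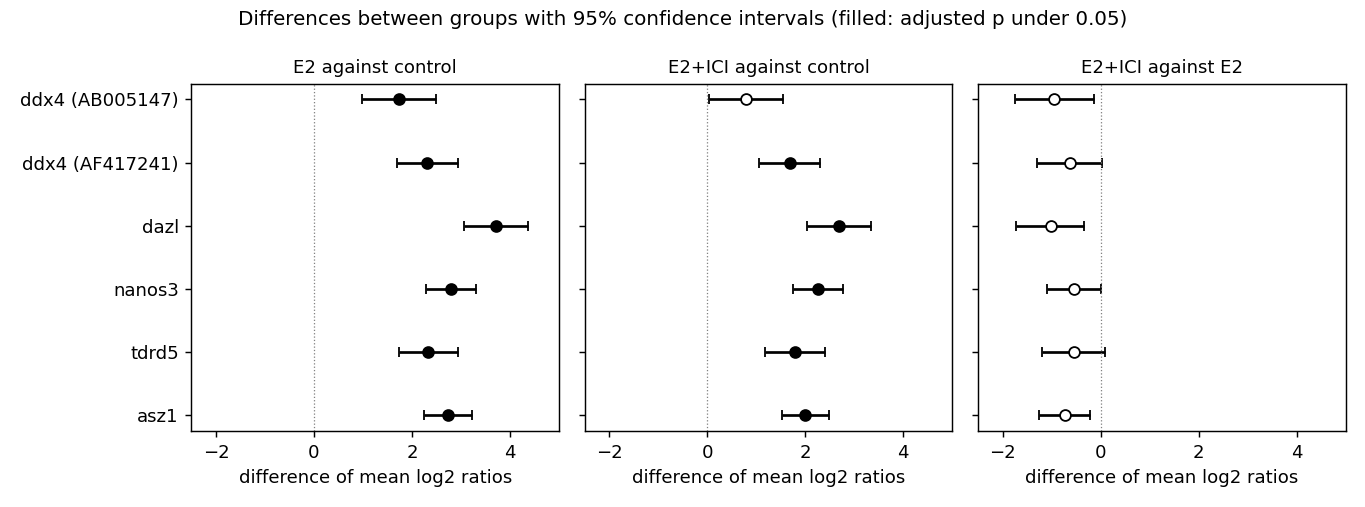
Differences of mean log2 ratios (horizontal axes) with their 95% confidence intervals for the 6 probes in the 3 comparisons, filled where the adjusted p was under 0.05. All points are filled for E2 against control, 5 of 6 for E2+ICI against control and none for E2+ICI against E2, where the points lie between -1.02 and -0.54.

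The 3 E2+ICI arrays, 1 per fish, were not alike. Replicate 2 had the lowest value of its group for all 6 probes and replicate 3 the highest for 5 of 6, and the median over the 6 probes was -0.28, -1.16 and -0.12 on E2+ICI replicates 1 to 3. In E2 fish the same median was 0.21, 0.01 and 0.11, and in control fish it was -2.71, -2.33, -2.37 and -2.44. The array of E2+ICI replicate 2 also had 912 missing values, against 201 and 364 on E2+ICI replicates 1 and 3. Its SD over all probes was 0.561, against 0.373 and 0.415. Expressed as a share of the difference between the E2 and control means, dazl stood at 81.4%, 49.8% and 86.2% on E2+ICI replicates 1 to 3, nanos3 at 87.0%, 63.2% and 92.0%, and asz1 at 76.3%, 54.4% and 89.1%. Probe AB005147 of ddx4 stood at 0.8% on replicate 2, the level of the control mean, where AF417241 stood at 44.3%. The median of all 3104 probes higher in E2 had the same order of fish, at 63.6%, 43.3% and 71.4%. These shares describe 1 array of 1 fish each and were not tested. A difference between fish and a difference between arrays cannot be told apart here.

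**Figure D4:**
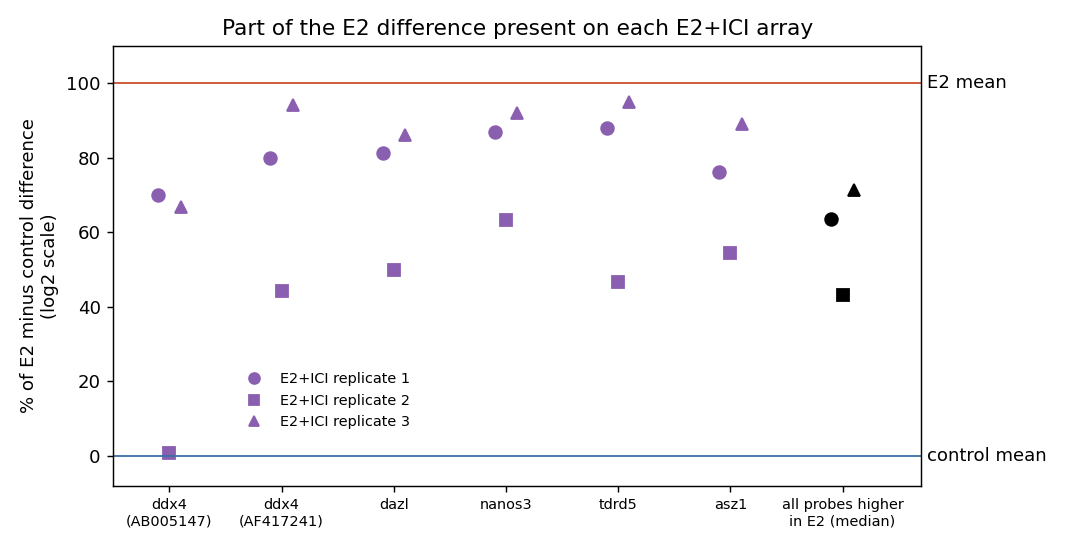
Share of the difference between the E2 mean and the control mean present on each of the 3 E2+ICI arrays (vertical axis, computed on the log2 scale), for the 6 probes and for the median of the 3104 probes higher in E2 (black). Replicate 2 is lowest in each column, at 0.8% to 63.2% for the germ line probes.

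Other genes of germ plasm and of the piRNA pathway moved in both directions. A list of 39 such genes had 13 genes and 15 probes named by symbol in the annotation. Of these probes 10 were higher, 2 lower and 3 did not pass in E2 against control, with a median difference of 0.86. Among all probes 19.2% passed as higher and 16.5% as lower. gtsf1, a zinc finger gene needed for transposon silencing in the mouse, averaged -0.73 ± 0.33 in E2+ICI, 0.36 ± 0.20 in E2 and -3.06 ± 0.22 in control fish (SD, n = 3, 3 and 4) and was higher by log2 3.42 in E2 than in control fish (adjusted p = 7.15e-07). The carbonic anhydrase gene ca15b was higher by log2 5.65 (adjusted p = 2.98e-06) and the RNA-binding protein gene rbpms2b by log2 2.81 (adjusted p = 5.01e-06). celf1, an RNA-binding protein gene, was higher by log2 1.23 on probe AB032726 (adjusted p = 8.27e-05), while its other probe AW019528 differed by 0.19 (adjusted p = 0.262). The 2 probes that were lower belong to rnf17, a Tudor domain gene of male germ cells in the mouse, with -0.68 (adjusted p = 0.0479), and to cxcr4b, the receptor that guides migrating germ cells in the embryo, with -0.66 (adjusted p = 0.0402). In E2+ICI against control 6 probes of the list were higher, 1 was lower (nanos1, -0.68, adjusted p = 0.0248) and 8 did not pass. The shares of all probes in that comparison were 8.92% higher and 3.04% lower. Of the list's probes 1 was higher, 2 were lower and 12 did not pass in E2+ICI against E2, where 2.88% of all probes passed as higher and 2.54% as lower. There gtsf1 (-1.09, adjusted p = 0.0175) and rbpms2b (-0.97, adjusted p = 0.0413) fell, and rnf17 rose (1.33, adjusted p = 0.0185). Without E2+ICI replicate 2 none of these 3 passed (gtsf1 -0.90, adjusted p = 0.0687; rbpms2b -0.77, adjusted p = 0.156; rnf17 1.41, adjusted p = 0.0637), and the lower calls of rnf17 and cxcr4b in E2 against control were lost under 13 and 9 of 22 alternatives. gtsf1, ca15b, rbpms2b and celf1 are named for the list's smallest adjusted p in E2 against control, and rnf17, cxcr4b and nanos1 were picked after their values were seen.

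Genes of meiosis, oocytes, testis and sperm, gonad somatic cells and liver were read beside the germ line genes. Of 39 genes of meiosis only 4 were named by symbol in the annotation, and probes without a symbol were not searched. hsf2bp, a gene of meiotic recombination, was higher in E2 than in control fish by log2 0.78 (adjusted p = 0.00496). terb1 (-0.44, adjusted p = 0.0938), brdt (-0.48, adjusted p = 0.119) and sycp1 (-0.17, adjusted p = 0.696) did not pass. Of the oocyte marker list 13 of 13 probes tested were higher in E2 and 12 of 13 in E2+ICI than in control fish, with median differences of 5.35 and 4.01. Of all probes 19.2% passed as higher in E2 and 8.92% in E2+ICI. The smallest adjusted p in E2 against control were those of the egg envelope gene zp3b (log2 5.58, adjusted p = 3.17e-07), the translation regulator cpeb1b (5.35, adjusted p = 4.44e-07), cldnd (6.27, adjusted p = 7.15e-07) and zar1l (4.60, adjusted p = 1e-06). The median over the oocyte probes ran from -1.43 to -0.06 on the E2+ICI arrays, 0.22 to 0.38 on the E2 arrays and -5.52 to -4.12 on the control arrays, and E2+ICI replicate 2 was the lowest of its group here too. RNA of oocyte markers thus moved with the 5 germ line genes, in fish that the study describes as males, and its part in their difference was not tested.

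The testis and sperm list of 51 genes had only 6 probes named by symbol in the annotation. Of these, 2 were higher and 2 lower in E2 than in control fish, with a median difference of -0.42. Across all probes 19.2% passed as higher and 16.5% as lower in this comparison. cyp17a1, a steroid synthesis enzyme that ovary also uses, was higher (log2 1.96, adjusted p = 2.21e-05), as was spata4 (0.60, adjusted p = 0.023), while rsph9, a radial spoke gene of cilia and sperm tails, (-0.85, adjusted p = 0.0027) and spata18 (-0.56, adjusted p = 0.014) were lower. The list's median ran from -0.35 to -0.25 on the E2+ICI arrays, -0.59 to -0.05 on the E2 arrays and -0.65 to 0.02 on the control arrays, in overlapping ranges, as the median of probes that moved in both directions. Among 17 probes of gonad somatic cell genes, 2 were higher, 3 lower and 12 did not pass in E2 against control, with a median of -0.28. Of all probes 35.6% passed in either direction, and the share of this list was not tested against it. star, the steroidogenic cholesterol carrier, was lower, with a log2 difference of -1.89 (adjusted p = 0.000374), as were inhbaa on probe BI880600 (-0.91, adjusted p = 0.00371) and inhbb (-0.67, adjusted p = 0.0139), both inhibin and activin subunit genes. The other inhbaa probe differed by -0.27 (adjusted p = 0.187) and did not pass. nr5a2 was higher on 1 probe, U93484 (log2 4.46, adjusted p = 0.00025), and not on the other 2 probes of the gene. Of 9 probes of liver markers 2 were higher and 5 lower in E2 against control, with a median of -1.23, among them vtg3 (7.66, adjusted p = 3.17e-07), hpxb (-3.87, adjusted p = 5.89e-06), cp (-2.20, adjusted p = 5.56e-05) and tfa (-1.23, adjusted p = 0.00176). Over the 9 liver probes the median log2 ratio to the reference was -0.29 to 0.51 on the control arrays. It was -1.20 to -1.11 on the E2 arrays and -0.22 to 0.01 on the E2+ICI arrays.

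**Figure D5:**
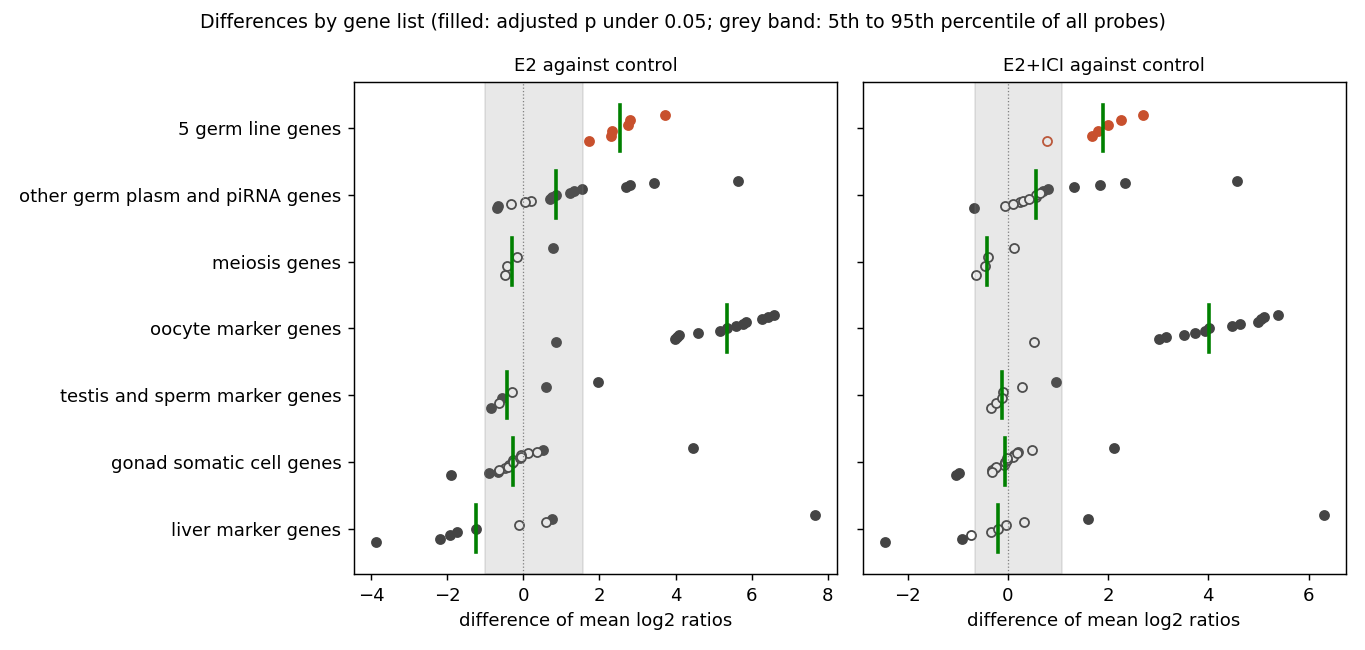
Differences of mean log2 ratios (horizontal axes) of each probe of the 5 germ line genes and of the other gene lists, in E2 against control (left) and E2+ICI against control (right), filled where the adjusted p was under 0.05, with green bars for list medians and a grey band for the 5th to 95th percentile of all probes. The 6 germ line probes lie above the grey band in E2 against control, from 1.73 to 3.71, below most oocyte markers, whose median is 5.35.

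The annotated probes most like each germ line probe across the 10 arrays were found by Pearson's r among 5279 probes with 1 symbol, as a description. dazl was closest to si:ch73-90k17.1 (r = 0.996), nasp (0.996), a histone chaperone gene, and naa40 (0.995), an acetyltransferase gene for histones. asz1 shared nasp (0.995) and naa40 (0.994) with it, after zgc:112980 (0.996), and dazl and asz1 were themselves the most alike of the 6 probes (r = 0.994). nanos3 was closest to lpcat1 (0.998), a phospholipid synthesis gene, zgc:112980 (0.996) and si:dkeyp-114g9.1 (0.995). tdrd5 was closest to zgc:153345 (0.990), rnf180b (0.990) and mos (0.989), the kinase of oocyte maturation. ddx4 had prrc2a (0.994), csk (0.991) and cdca3 (0.990) on AF417241, but qrich1 (0.988), dr1 (0.985) and e2f5 (0.984) on AB005147. At the lower bound of 0.95, r was exceeded by 4.70% to 5.87% of the compared probes with dazl, nanos3, tdrd5 and asz1, by 3.52% with AF417241 and by 1.04% with AB005147. How many probes reached the higher values named above was not counted.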

How the data were processed

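Log2 ratios of 10 whole male zebrafish against a common reference were used as deposited. The authors subtracted the local background in GenePix, took the log2 ratio of fish (Cy3) to reference (Cy5), chose arrays by scatter plot and applied Lowess normalization; software versions are not given in the sources used here. The direction, fish over reference, follows from the methods and from vtg3, which is high in E2 fish. A second table held the same ratios before Lowess. Groups came from the labels, of which the series text counts 1 control fish fewer. Of the 16416 probes, 6088 carry 1 symbol, 75 several and 10253 none.

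One limma fit (3.58.1, R 4.3.3) covered all arrays and the 16208 probes that had 2 or more values per group and no more than 6 missing; it was tested on simulated data. SAM, the method of the study, was coded anew in R for 2 groups at a time, over all probes tested and at q under 0.05 (35 permutations). The study itself first selected probes by a SAM over all groups at a looser threshold, a step not repeated here. Python 3.11.15 (numpy 2.4.6, pandas 2.3.3) served for the descriptive summaries, and figures used matplotlib 3.10.9. The alternatives tried were ratios before Lowess with array medians set to 0, quantile normalization, medians of the normalized arrays at 0, a robust prior and array weights. Further ones were no filter, complete probes, only the groups compared, repeated values set to missing, a replicate block, SAM and leaving out each array. Arrays scaled to equal spread were added after seeing the data. The members and lists were chosen with earlier results of these data known. Named were all member probes, the 4 probes of each list with the smallest adjusted p in E2 against control, and the 3 single-symbol probes most correlated with each member probe. No probe or genome sequence was used here.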

Additional observations from a re-analysis of the deposited data

How the results depend on the processing

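In E2 against control the 6 germ line probes kept their direction and passed under all 22 alternatives; leaving out each array gave 1.57 to 2.00 for AB005147, 2.11 to 2.44 for AF417241, 3.62 to 3.85 for dazl, 2.69 to 2.98 for nanos3, 2.19 to 2.47 for tdrd5 and 2.68 to 2.86 for asz1 on the log2 scale. Quantile normalization gave 1.40, 1.67, 2.44, 2.07, 1.66 and 1.87 in the same order, equal spread 1.52, 1.80, 2.84, 2.31, 1.85 and 2.11, and ratios before Lowess 2.01, 3.01, 3.65, 3.33, 2.82 and 3.38. No germ line result reversed. Among the other genes named, sycp1, which did not pass, ranged from -0.38 to 0.11 with an array left out. spata4 no longer passed without control replicate 1 (adjusted p = 0.0537), without E2 replicate 1 (0.104) or by SAM, spata18 without E2 replicate 1 (0.0666) and inhbb without E2 replicate 3 (0.056). terb1 (0.0433) and brdt (0.0348) passed without E2+ICI replicate 2. The call of cxcr4b was lost for 6 and that of rnf17 for 8 of the 10 arrays left out.

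In E2+ICI against control (1939 probes passed, 1446 higher), quantile normalization gave 1026 probes, of which 53.8% were higher, against 74.6% as analysed, and differences of 0.68 for dazl, 0.88 for AF417241, 0.83 for asz1 and 1.01 for tdrd5, none of which passed. It moved the control mean of dazl to -2.40. Array weights gave 3631 probes and 1.30 for AB005147, which passed. AB005147 did not pass with quantile normalization (0.11, adjusted p = 0.881), equal spread (0.39, adjusted p = 0.499) or ratios before Lowess (0.81, adjusted p = 0.262). The fit of only the 2 groups gave 1213 probes, equal spread 1074 and SAM 1130, with 85.2% higher. nanos1 lost its call under 8 alternatives and celf1 under 4. Leaving out an array gave 897 to 2444 probes, the lowest count without E2+ICI replicate 3 and 1089 in the absence of its replicate 1, and 0.59 to 1.18 for AB005147.

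In E2+ICI against E2 (879 probes passed), quantile normalization gave 3930 probes and let dazl (-1.76), AB005147 (-1.29), AF417241 (-0.79) and asz1 (-1.04) pass, as equal spread did with 3833 probes and -1.24, -1.13, -0.74 and -0.90 in the same order of probes. Array weights gave 3846 probes, with dazl (-0.75), AB005147 (-0.71) and asz1 (-0.58) passing, and the fit of only the 2 groups gave 3314, with -1.02, -0.94 and -0.73 for the same probes. Ratios before Lowess gave 385 probes. Leaving out an array gave 162 (without E2+ICI replicate 2) to 2696 (without control replicate 4) probes, with 172, 226 and 176 in the absence of E2 replicates 1 to 3, and 286 and 564 in the absence of E2+ICI replicates 1 and 3. dazl then ranged from -1.28 to -0.60 and AB005147 from -1.15 to -0.55. Leaving out an array ended the call of gtsf1 for 3, of rbpms2b for 7 and of rnf17 for 5 of the 10 arrays. SAM was not run for this comparison. The cause of these changes was not tested.

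Replicate numbers did not pair the fish, since the deviations of same-numbered arrays correlated with -0.232 to 0.173 over 9 pairs. The replicate block, which also leaves control replicate 4 without a partner and so out of the differences, gave 2090 probes in E2+ICI against E2, where AB005147 passed at -0.94, and 1.06 for AB005147 in E2+ICI against control, which passed, with the same values as without control replicate 4; it changed no other call of the germ line genes. No spot intensities were used here, so that the signal over background behind each ratio is unknown.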
